A study of Mus musculus with 16 samples.

Results

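The genes described here are 10 genes of the Notch pathway, followed by name in every library of a leukaemia cell line study: the receptors Notch1 and Notch2, the ligand Dll1, the nuclear factors Rbpj, Maml1 and Maml2, the target genes Hes1, Dtx1 and Nrarp, and Fbxw7, which takes part in turnover of the active receptor. They were listed by name and not by a cut on their values, although earlier results of these data were known when they were chosen. All 10 were found among the 50686 gene models of the count tables. Notch receptors are cut after a ligand on a neighbouring cell binds them, and the freed intracellular domain enters the nucleus, where it joins the DNA-binding protein RBPJ and a Mastermind-like protein to switch on target genes. The kinase CDK8 with its partner cyclin C can phosphorylate that domain, after which the ubiquitin ligase subunit FBXW7 marks it for destruction. In the blood system Notch signalling is best known for directing lymphoid progenitors towards the T-cell lineage and away from the B-cell lineage.

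RNA was sequenced from 8 mouse cell lines that had been made individually from C57BL/6N bone marrow with a retrovirus carrying the BCR-ABL1p185 oncogene, and all groups share this oncogene. The labels call 4 lines wild-type, which the methods of the study describe as Cdk8 fl/fl, and 4 lines Cdk8 knockout, described there as Cdk8 Δ/Δ Vav-Cre, in which a Cre driven in blood cells removed Cdk8 before transformation. Each line was cultured for 48 h with 0.01% DMSO or with 1 µM Senexin B, an inhibitor of the kinase activity of CDK8 and its relative CDK19. The 16 libraries therefore formed 4 groups of 4, and the replicate number was read as the line. The comparisons ask whether loss of Cdk8, or its inhibition, goes with a different level of Notch pathway RNA in these cells. The methods state the age of marrow donors for other assays of the study, and not for the lines sequenced here. Protein, cleavage and phosphorylation of the receptors were not measured in these files.

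The libraries held 13145876 to 18349425 counts on genes, with a median of 15473664.5, and values are given as CPM, that is counts per 1000000 after TMM scaling. Cdk8 RNA in DMSO was 68.7, 61.8, 63.3 and 65.8 CPM in wild-type lines 1 to 4 and 35.3, 52.1, 47.1 and 42.8 CPM in knockout lines 1 to 4, so the genotypes did not overlap. With Senexin B it was 89.4, 56.3, 56.8 and 55.2 CPM in the wild-type lines and 43.9, 61.7, 42.9 and 41.2 CPM in the knockout lines, where knockout line 2 lay among the wild-type values. The counts are taken over the whole gene and do not show which exons were lost. Each of 12 pro-B cell markers reached 1 CPM in at least 1 library, with summed levels of 6350 to 9980 CPM over the 16 libraries. Of 10 T-cell markers 8 stayed under 1 CPM in every library, including Cd3g and Themis at 0, and of 10 myeloid markers 8 did, including Elane, S100a8 and S100a9 at 0. Summed T-cell markers ran from 3.62 to 55.4 CPM, with Zap70 the highest of them. Summed erythroid markers did not exceed 2.76 CPM and summed stromal markers 10.1 CPM, while summed mature B-cell markers ran from 46.3 to 304 CPM. Summed plasmacytoid dendritic markers ran from 134 to 332 CPM, but 3 of these 6 stayed under 1 CPM in every library, and Cox6a2 was the highest of them. In such bulk libraries fewer cells that express a gene and less RNA per cell cannot be told apart.

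Short stretches of sequence before the transcription start are shown for the target gene Nrarp and for both starts of Maml2, the member with the smallest p in the wild-type lines without the replicate block. The RefSeq promoter table (GRCm38.p6) held 14 windows for 9 of the 10 genes, each of 250 bases before and 50 after the start, and none for Hes1. The letters TGGGAA, the core of the sequence that RBPJ is known to bind, were searched on both strands (TTCCCA on the other strand) and occurred in 25.6% of all 32851 windows. They occurred in 3 of the 14 windows of these genes, of which 1 belongs to Maml2 and 2 overlapping ones to Rbpj. The longer letters GTGGGAA occurred in 6.38% of all windows and in 0 of these 14. The 250 bases before each start are printed 5′ to 3′ on the gene's own strand (the plus strand in all 3), and capitals mark the RBPJ core letters. The first is Nrarp at chr2:25180508-25180757, the second the upstream start of Maml2 at chr9:13297708-13297957, and the third the downstream start of Maml2 at chr9:13662210-13662459, where the letters lie 145 to 140 bases before the start on the minus strand.
Nrarp: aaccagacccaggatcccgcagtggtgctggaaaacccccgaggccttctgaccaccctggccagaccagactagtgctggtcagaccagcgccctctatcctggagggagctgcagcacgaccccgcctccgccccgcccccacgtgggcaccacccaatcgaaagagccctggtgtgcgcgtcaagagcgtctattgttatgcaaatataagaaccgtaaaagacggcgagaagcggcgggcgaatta
Maml2 upstream start: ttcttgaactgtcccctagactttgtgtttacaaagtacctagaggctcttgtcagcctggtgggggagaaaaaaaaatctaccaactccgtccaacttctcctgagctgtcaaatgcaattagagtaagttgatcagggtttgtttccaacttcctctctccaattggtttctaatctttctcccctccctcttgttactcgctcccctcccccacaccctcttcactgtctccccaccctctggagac
Maml2 downstream start: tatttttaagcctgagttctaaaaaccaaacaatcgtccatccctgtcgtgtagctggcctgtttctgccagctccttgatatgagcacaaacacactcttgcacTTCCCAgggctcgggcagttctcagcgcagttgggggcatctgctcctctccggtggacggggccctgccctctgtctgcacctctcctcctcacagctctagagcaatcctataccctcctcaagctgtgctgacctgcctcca

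The 10 genes covered a wide span of expression. Per kilobase of counted exon length, in wild-type DMSO lines, Hes1 was highest at 22.1 ± 16.8 CPM per kb (SD, n = 4), followed by Maml1 at 13.1 ± 2.48, Maml2 at 13 ± 0.639 and Nrarp at 7.48 ± 2.8 CPM per kb. Next in order came Notch1 at 3.88 ± 1.47, Rbpj at 3.76 ± 0.705, Notch2 at 2.94 ± 0.607 and Fbxw7 at 1.81 ± 0.242 CPM per kb. Dtx1, at 0.217 ± 0.148, and Dll1, at 0.0402 ± 0.0504 CPM per kb, were the lowest. Hes1 spread over the whole range of Maml1 and Maml2, those 2 overlapped each other, and so did Notch1, Rbpj and Notch2. Nrarp (4.9 to 11.1 CPM per kb) overlapped Notch1 (2.98 to 6.06), and Fbxw7 (1.5 to 2) lay below every Notch2 value (2.15 to 3.56). Length was taken without the bases shared with other genes, because reads there are not assigned: 79.43% of Nrarp lies under an antisense gene model, as do 20.55% of Dll1 and 9.76% of Notch1. Reads were counted without strand, so reads in the shared bases were left out whichever gene they came from, and Nrarp rests on 531 counted bases. A read of such a partner from outside its annotated exons cannot be told from one of the gene itself.

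**Figure D1:**
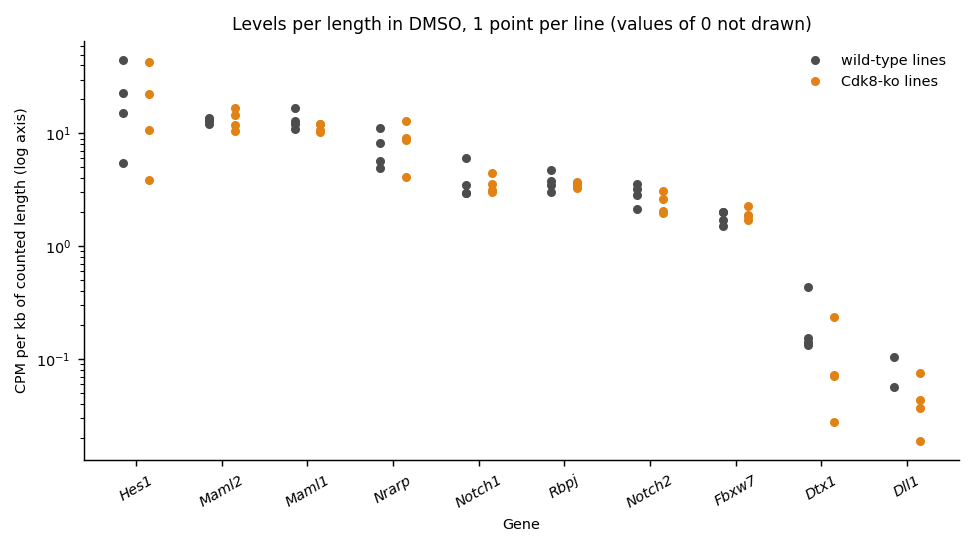
Levels of the 10 genes in DMSO as CPM per kb of counted length on a log axis, with 1 point per line, wild-type lines in grey and knockout lines in orange. Hes1 spans 3.83 to 44.9 CPM per kb while Maml1, Maml2, Rbpj and Fbxw7 stay in narrow bands, and the Dll1 values of 0 are not drawn.

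The lines differed from each other in Hes1 and Dtx1 far more than in the nuclear factors. Over the 8 lines in DMSO, the SD of log2 CPM was 1.29 for Hes1, with an 11.7-fold span, and 1.01 for Dtx1, with a 15.7-fold span. The median SD over all 13174 genes tested was 0.34, and 7.94% of them varied more than Hes1 and 11.3% more than Dtx1. Nrarp followed with an SD of 0.56, then Notch1 with 0.36 and Notch2 with 0.32, which lie close to the median gene. Rbpj and Fbxw7, at 0.18 each, Maml2, at 0.20, and Maml1, at 0.21, varied less than most genes, since between 77.9% and 85.7% of genes had a larger SD. Dtx1 rests on 2 to 40 counts per library in DMSO, so its counting error is large.

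**Figure D2:**
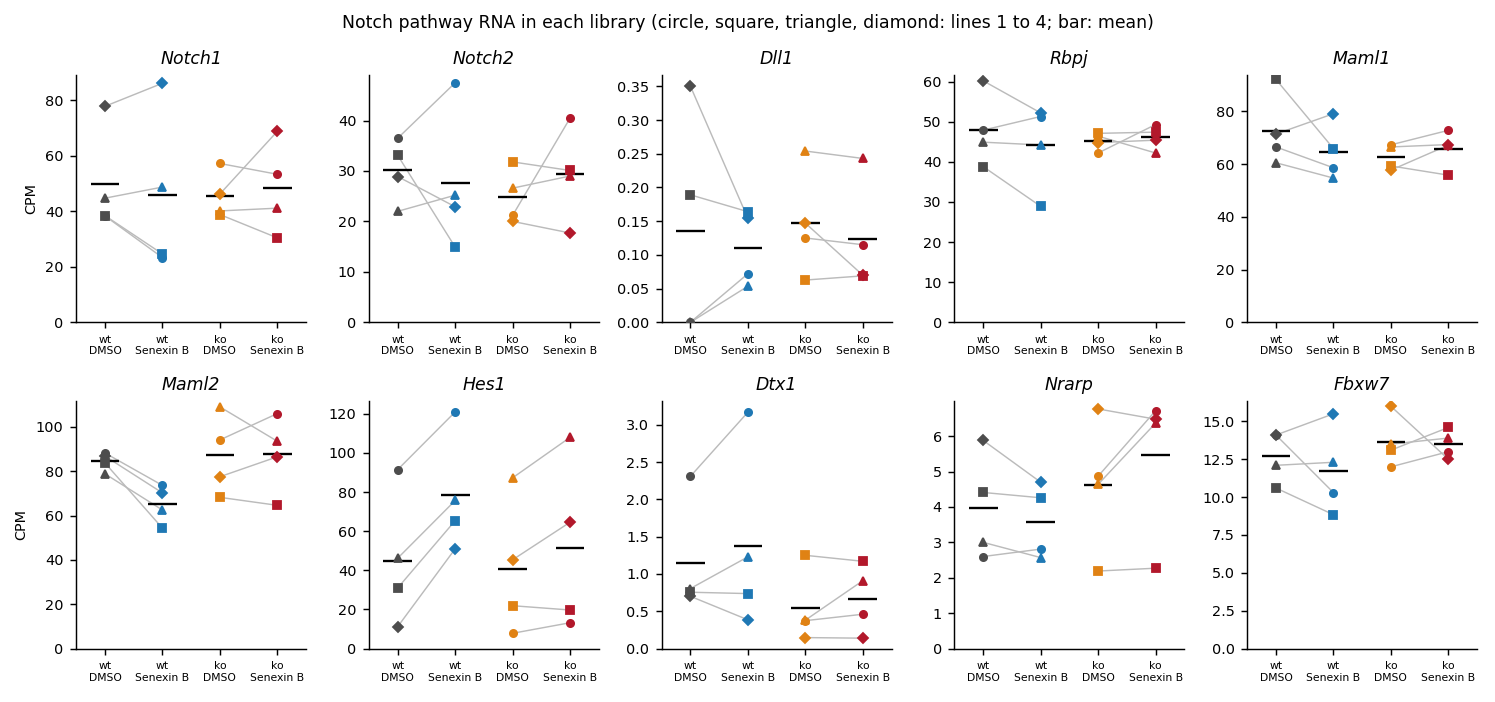
CPM of the 10 genes in each of the 16 libraries, with grey lines that join each line's DMSO value to its Senexin B value and bars at the group means (n = 4 lines). With Senexin B, Hes1 is higher and Maml2 lower in all 4 wild-type lines, and in the other panels the wild-type lines differ in direction.

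Of the receptors, Notch1 in DMSO had 38.3, 38.4, 44.7 and 77.8 CPM in wild-type lines 1 to 4 and 57.2, 38.8, 40.1 and 46.2 CPM in knockout lines 1 to 4. Wild-type line 4 was the highest of the 8, and the genotypes overlapped. With Senexin B, Notch1 had 23.3, 24.6, 48.7 and 86.1 CPM in the wild-type lines and 53.3, 30.4, 41.1 and 68.8 CPM in the knockout lines. Wild-type lines 1 and 2 were lower than with DMSO and lines 3 and 4 were higher, and the knockout lines were divided in the same way, with 2 of 4 higher. Its log2 fold change was -0.12 ± 0.25 (SE) between knockout and wild-type in DMSO (adjusted p = 0.961, edgeR's quasi-likelihood test) and -0.11 ± 0.45 with Senexin B in wild-type lines.

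Notch2, the receptor needed for marginal zone B cells, had 36.5, 33.1, 22 and 28.9 CPM in wild-type lines 1 to 4 in DMSO and 21.2, 31.8, 26.6 and 20 CPM in knockout lines 1 to 4. With Senexin B the values were 47.5, 14.9, 25.2 and 22.9 CPM in the wild-type lines and 40.5, 30.1, 29 and 17.7 CPM in the knockout lines. The highest and the lowest of the 16 values were both in wild-type lines with Senexin B, in lines 1 and 2. The log2 fold change between genotypes in DMSO was -0.27 ± 0.21 (adjusted p = 0.913, edgeR), and in each genotype 2 of 4 lines were higher with Senexin B.

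The balance of the 2 receptors varied between lines. Per length, the ratio of Notch1 to Notch2 in DMSO was 0.837, 0.925, 1.62 and 2.15 in wild-type lines 1 to 4 and 2.15, 0.975, 1.2 and 1.84 in knockout lines 1 to 4. With Senexin B it was 0.391, 1.31, 1.54 and 2.99 in the wild-type lines and 1.05, 0.805, 1.13 and 3.1 in the knockout lines. The mean log2 ratio differed by 0.20 between genotypes in DMSO (exact permutation test, two-sided, p = 0.571) and by 0.08 with Senexin B (exact p = 0.943). The difference of Senexin B from DMSO was -0.04 in wild-type lines (exact sign-flip permutation p = 0.875) and -0.16 in knockout lines (exact p = 0.625), and the 4 p-values adjusted over these comparisons were all 0.943. With 4 lines per group the smallest p that these exact tests can give is 0.0286 between genotypes and 0.125 within lines.

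Dll1, a ligand of Notch1 and Notch2, was nearly undetected, with 0 to 5 counts per library. It was at 0 in wild-type lines 1 and 3 in DMSO, and a count of 0 allows up to 3 counts in a library of this depth. It failed the filter on low counts in every comparison and was not tested.

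Rbpj, the DNA-binding partner of the receptor domain, had 47.9, 38.8, 44.9 and 60.2 CPM in wild-type lines 1 to 4 in DMSO and 42.2, 47.1, 46.4 and 44.8 CPM in knockout lines 1 to 4. The knockout values lay inside the range of the wild-type lines (log2 fold change -0.08 ± 0.15, adjusted p = 0.957, edgeR). With Senexin B it ran from 28.9 to 52.2 CPM in wild-type lines and from 42.2 to 49.3 CPM in knockout lines. Maml1, a coactivator that bridges the complex to histone acetyltransferases, ran from 60.5 to 92.1 CPM in wild-type and from 57.7 to 67.3 CPM in knockout lines in DMSO. Its log2 fold change was -0.21 ± 0.15 between genotypes (adjusted p = 0.912, edgeR) and -0.16 ± 0.18 with Senexin B in wild-type lines, where 1 of 4 lines was higher.

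Maml2, a second coactivator of the complex, showed the clearest split of the nuclear factors. In the wild-type lines 1 to 4 it had 88.2, 83.7, 78.8 and 86.8 CPM in DMSO and 73.6, 54.3, 62.5 and 70.2 CPM with Senexin B. Every wild-type line was lower with Senexin B, and the DMSO and Senexin B values did not overlap, as was so for 1.31% of all genes in this direction. In the knockout lines 1 to 4 it had 94.1, 68.2, 109 and 77.5 CPM in DMSO and 106, 64.6, 93.5 and 86.5 CPM with Senexin B. There 2 lines were higher and 2 lower. The log2 fold change in wild-type lines was -0.36 ± 0.14 (unadjusted p = 0.0343, adjusted p = 1, edgeR), and with the line as a block it was -0.37 ± 0.14 (unadjusted p = 0.0302, adjusted p = 0.415). In knockout lines it was 0.01 ± 0.19, and the difference between the genotypes' responses was 0.38 ± 0.24 on the log2 scale (unadjusted p = 0.132, with the block 0.39 ± 0.16 and unadjusted p = 0.0311, adjusted p = 0.991, edgeR). No Maml2 difference passed the adjustment over all genes.

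Of the target genes, Hes1, a transcriptional repressor and a direct target of Notch, had the largest SD of log2 CPM over the lines in DMSO, although Dtx1 had the wider span. In the wild-type lines 1 to 4 it had 91.5, 31, 46.2 and 11.2 CPM in DMSO and 121, 65.4, 75.7 and 51 CPM with Senexin B. Every wild-type line was higher with Senexin B, although the groups overlapped, since the lines lay far apart in DMSO. In the knockout lines 1 to 4 it had 7.8, 21.9, 87.3 and 45.4 CPM in DMSO and 13.2, 19.7, 108 and 64.6 CPM with Senexin B, so 3 of 4 were higher. The log2 differences within wild-type lines 1 to 4 were 0.40, 1.08, 0.71 and 2.18, and those within knockout lines 1 to 4 were 0.75, -0.15, 0.30 and 0.51. Line 4, the wild-type line with the least Hes1 in DMSO, had the largest difference, but that difference is computed from the same DMSO value.

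Without regard to line, the Hes1 log2 fold change with Senexin B in wild-type lines was 0.81 ± 0.56 (unadjusted p = 0.186, adjusted p = 1, edgeR). Leaving out 1 library moved it from 0.48, without wild-type line 4 in DMSO, to 1.41, without wild-type line 1 in DMSO. With the line as a block it was 1.08 ± 0.27 (unadjusted p = 0.00363), and its adjusted p of 0.198 over 12989 genes did not pass. Without wild-type line 1, an alternative chosen after the data were seen, the blocked value was 1.29 ± 0.25 with an adjusted p of 0.0133 (edgeR), which passed the limits. In that fit 538 genes passed, against 45 with all wild-type lines, so passing there was not particular to Hes1. Without line 2, 3 or 4 the Hes1 value was 1.08, 1.21 and 0.72, with adjusted p of 0.62, 0.49 and 0.39. In those fits 0, 9 and 28 genes passed, so the call rests on which lines are included. In knockout lines the log2 fold change was 0.34 ± 0.84, and with the block 0.35 ± 0.15 (unadjusted p = 0.0518, adjusted p = 0.491, edgeR). The 2 genotypes' responses differed by -0.46 ± 1.08 on the log2 scale, or by -0.72 ± 0.35 with the block (unadjusted p = 0.0663, adjusted p = 0.991), so a difference between genotypes was not shown. Hes1 was higher with Senexin B in 7 of 8 lines, and 7.86% of 12717 genes were higher in at least 7 of 8.

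**Figure D3:**
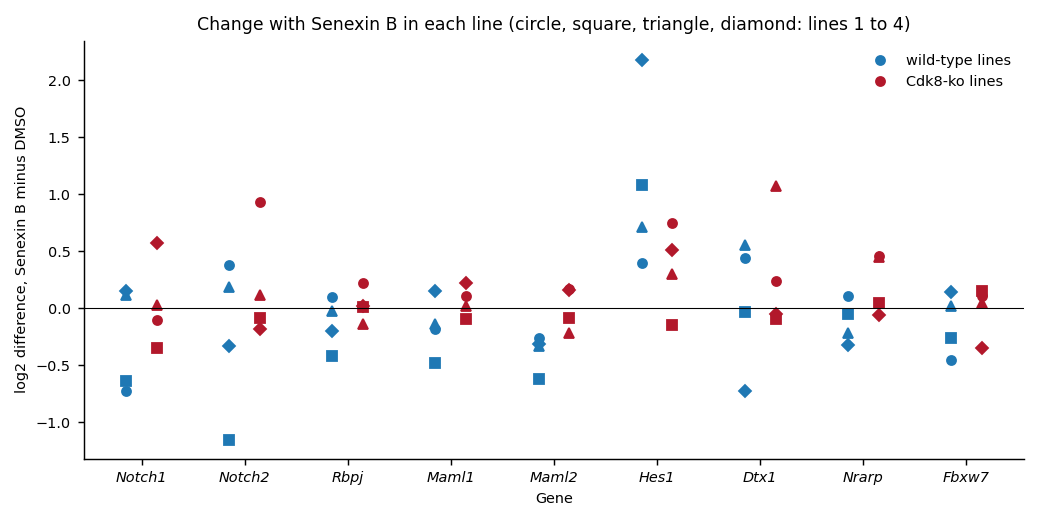
Log2 difference in CPM between Senexin B and DMSO within each line (0.1 CPM added) for 9 genes, wild-type lines in blue and knockout lines in red, with symbols for lines 1 to 4. Hes1 lies above 0 in 4 of 4 wild-type lines and 3 of 4 knockout lines, and Maml2 lies below 0 in 4 of 4 wild-type lines.

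Dtx1, a ubiquitin ligase gene that Notch switches on, was barely expressed. In DMSO it had 2.31, 0.755, 0.805 and 0.7 CPM in wild-type lines 1 to 4 and 0.374, 1.25, 0.381 and 0.147 CPM in knockout lines 1 to 4. Wild-type line 1 stood above all other lines, and 3 of 4 knockout lines lay below every wild-type line. The log2 fold change was -1.06 ± 0.67 in DMSO (adjusted p = 0.908, edgeR) and -1.04 ± 0.75 with Senexin B (adjusted p = 1), on 2 to 44 counts per library. In DMSO it was -0.46 without wild-type line 1 and -1.89 without knockout line 2, and with Senexin B it was -0.25 and -1.43 without the same lines. With Senexin B Dtx1 had 3.17, 0.737, 1.23 and 0.385 CPM in the wild-type lines, with 2 of 4 higher than in DMSO. It failed the filter on low counts in the comparison within knockout lines.

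Nrarp, a small ankyrin repeat protein that Notch induces and that limits Notch signalling, had 2.6, 4.41, 3 and 5.88 CPM in wild-type lines 1 to 4 in DMSO and 4.87, 2.19, 4.64 and 6.77 CPM in knockout lines 1 to 4. With Senexin B it had 2.81, 4.26, 2.57 and 4.7 CPM in the wild-type lines and 6.72, 2.27, 6.37 and 6.48 CPM in the knockout lines. In that condition 3 of 4 knockout lines lay above every wild-type line and knockout line 2 lay below all of them. The log2 fold change between genotypes was 0.61 ± 0.41 with Senexin B (unadjusted p = 0.174, adjusted p = 1, edgeR) and 0.22 ± 0.41 in DMSO. The 3 targets differed in sign in both genotype comparisons and with Senexin B in wild-type lines, where Hes1 was higher in 4 of 4 lines, Dtx1 in 2 of 4 and Nrarp in 1 of 4.

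Fbxw7, the ligase subunit, ran from 10.6 to 14.1 CPM in wild-type and from 12 to 16 CPM in knockout lines in DMSO. With Senexin B it ran from 8.84 to 15.5 CPM in wild-type and from 12.5 to 14.6 CPM in knockout lines. Its log2 fold changes were 0.10 ± 0.18 and 0.21 ± 0.23 between genotypes and -0.11 ± 0.24 and -0.01 ± 0.16 with Senexin B in the wild-type and knockout lines, and none of the 4 had an unadjusted p under 0.05.

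**Figure D4:**
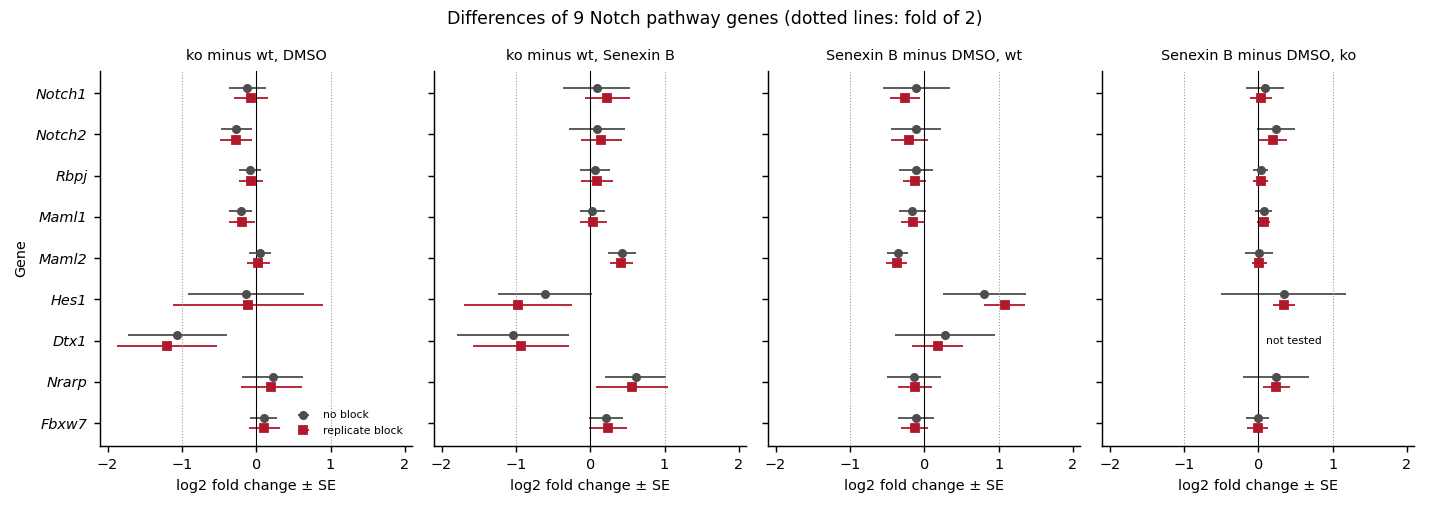
Log2 fold change ± SE of 9 genes in the 4 comparisons (n = 4 lines per group), from edgeR without a block in grey and with the replicate number as a block in red, with dotted lines at a fold of 2. Hes1 with Senexin B in wild-type lines moves from 0.81 ± 0.56 to 1.08 ± 0.27 with the block, and Dtx1 could not be tested within knockout lines.

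Counted over the 10 genes, none passed the limits (adjusted p under 0.05 and a fold over 2) in any of the 5 comparisons, by edgeR without or with the block or by DESeq2. For genotype in DMSO 9 genes could be tested, 3 were higher and 6 lower in knockout lines with a median log2 fold change of -0.12, and 0 had an unadjusted p under 0.05. Among all 13174 genes tested, 0.00759% passed the limits, 5.32% had an unadjusted p under 0.05 and the median was 0.0017. The groups overlapped for all 9, and 3.14% of all genes had groups that did not overlap. For genotype with Senexin B, 1 of 9 (Maml2, 0.43 ± 0.19, unadjusted p = 0.0491, adjusted p = 1, edgeR) had an unadjusted p under 0.05, against 1.55% of 13010 genes, and 0% of all genes passed the limits. Here 7 genes were higher and 2 lower in the knockout lines, with a median of 0.09, no group pair was without overlap, and 0.999% of all genes had groups without overlap. Both genotype comparisons use the same lines, and each shares its libraries with the comparisons of Senexin B.

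For Senexin B in wild-type lines 2 genes were higher and 7 lower, with a median log2 fold change of -0.11 against 0.02 for all genes, and 1 of 9, Maml2, had an unadjusted p under 0.05, against 3.8% of 12989 genes. With the block these were 2 of 9, Hes1 and Maml2, against 10.3%, while 45 genes of all, or 0.346%, passed the limits in place of 0. The same direction in all 4 lines was seen for 2 of 9 members against 17.8% of all genes. Hes1 was higher in all 4 lines, which held for 8.38% of all genes, and Maml2 lower in all 4, which held for 9.46%. In knockout lines 8 genes could be tested, 7 were higher and 1 lower with a median of 0.08, and 0 had an unadjusted p under 0.05 without or with the block, against 1.83% and 10.3% of 13285 genes. No member moved one way in all 4 knockout lines, which 19.2% of all genes did, and 0.0527% of all genes passed the limits with the block in place of 0%. In the test of the difference between genotypes in the response to Senexin B, 0 of 9 had an unadjusted p under 0.05 without the block and 1, Maml2, with it, against 0.473% and 3.24% of 14164 genes, and 0% of all genes passed the limits.

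The other 81 listed genes of the pathway gave the setting in which the members lie. Of the machinery that cuts and modifies the receptors, every listed gene passed the filter for the 16 libraries, with Adam10, the protease of the first cut, at 153 to 245 CPM and Lfng, a glycosyltransferase that changes ligand preference, at 95.8 to 159 CPM. Other receptors and ligands were low or varied between lines: Notch3 did not exceed 2.95 CPM, Jag2 16.1 CPM and Dll4 5.64 CPM, and the non-canonical ligand Dlk1 ran from 0.0536 to 106 CPM. Of the listed targets known from T-cell progenitors, Bcl11b was at 0 in all 16 libraries and Ptcra had no more than 1 count, while Tcf7 ran from 5.91 to 84.3 CPM, Il2ra from 4.2 to 113 CPM and Gata3 from 0.0535 to 15.7 CPM. The Hes1 relatives Hey1 and Hey2 had at most 2 and 4 counts. Hes5, another relative, had 1.01 to 3 CPM, while Hes6 was higher, at 12 to 43.1 CPM.

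None of these 81 genes passed the limits in any comparison. For genotype in DMSO 68 could be tested, 35 were higher and 33 lower. At an unadjusted p under 0.05, 1 was higher and 3 were lower, against 5.32% of all genes in either direction. The lower ones were Cdk8 itself (-0.55 ± 0.14, unadjusted p = 0.00368, adjusted p = 0.897, edgeR), its module partner Med13l and Igf1r, and the higher one was Aph1c, a gamma-secretase subunit (1.11 ± 0.47). Cdk8 is the gene deleted in the knockout lines, so its place among the lower ones was set by the design. Med13l had 219, 273, 242 and 230 CPM in wild-type lines 1 to 4 and 167, 194, 162 and 205 CPM in knockout lines 1 to 4 (log2 fold change -0.40 ± 0.12, adjusted p = 0.897, edgeR). Its groups did not overlap, which the rule for named genes required, and this was so for 3.14% of all genes. Igf1r and Aph1c lie outside the rule for named genes and are named after their values were seen. For genotype with Senexin B, 67 could be tested, 44 were higher and 23 lower. Aph1c alone had an unadjusted p under 0.05 (1.49 ± 0.64, adjusted p = 1, edgeR), against 1.55% of all genes.

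With Senexin B in wild-type lines 26 of 68 were higher and 42 lower, and 2 of the 68, Kat2b and Ep300, had an unadjusted p under 0.05, against 3.8% of all genes. Both encode histone acetyltransferases. Kat2b had 33.6, 38.5, 36.4 and 39.1 CPM in lines 1 to 4 in DMSO and 20.8, 29.3, 29.6 and 25.7 CPM with Senexin B, lower in every line (-0.47 ± 0.16, unadjusted p = 0.0177, adjusted p = 1, edgeR). Ep300 had 354, 322, 261 and 346 CPM in DMSO and 278, 196, 236 and 256 CPM with Senexin B, also lower in every line (-0.40 ± 0.17, unadjusted p = 0.0428, adjusted p = 1). The rule for named genes required the same direction in all 4 lines, so that direction adds nothing to their p-values. Of all genes 9.46% were lower in all 4 wild-type lines. With the block 1 of the 68 was higher and 7 were lower at an unadjusted p under 0.05, against 10.3% of all genes in either direction. The higher one, Il2ra, the interleukin-2 receptor alpha chain and a Notch target in T cells, had an adjusted p of 0.0484 (0.91 ± 0.14, edgeR) and stayed under the limit of a fold of 2. It is outside the rule for named genes and was named after its values were seen. In wild-type lines 1 to 4 it had 23.8, 14.5, 63.8 and 12.3 CPM in DMSO and 45.5, 24.6, 113 and 25.9 CPM with Senexin B, higher in every line. Of all genes 8.38% were higher in all 4 wild-type lines. In knockout lines 1 to 4 Il2ra had 8.61, 8.77, 30 and 43.2 CPM in DMSO. With Senexin B it had 4.2, 14.5, 54.6 and 85.6 CPM there, lower in line 1 and higher in lines 2 to 4. Of the same list of targets, 3 were lower with the block at an unadjusted p under 0.05, also named after their values were seen: Tcf7 (-0.69 ± 0.21, adjusted p = 0.295), the cyclin gene Ccnd1 (-0.54 ± 0.21, adjusted p = 0.415) and the complement receptor gene Cr2 (-0.91 ± 0.36, adjusted p = 0.439, edgeR). In knockout lines 31 of 66 were higher and 35 lower, and 0 had an unadjusted p under 0.05 without the block, against 1.83% of all genes. With the block 4 were higher and 3 lower at that p, against 10.3% of all genes. Of these, Ccnd1 had the smallest p (-0.72 ± 0.13, unadjusted p = 0.0007, adjusted p = 0.154, edgeR). Ccnd1 was lower in every knockout line and in every wild-type line, and was named after its values were seen. In knockout lines 19.2% of all genes moved the same way in all 4. Kat2b was lower in every knockout line too, with 57.9, 32.2, 34.6 and 29.7 CPM in lines 1 to 4 in DMSO and 41.8, 26.8, 29.2 and 24.9 CPM with Senexin B (-0.31 ± 0.10 with the block, unadjusted p = 0.0168, adjusted p = 0.369, edgeR). In the difference between the genotypes' responses 45 of 69 were higher and 24 lower, and 0 had an unadjusted p under 0.05, against 0.473% of all genes.

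Whether target RNA varied with receptor RNA was examined over the 8 lines in DMSO, as 6 relations. Notch2 and Dtx1 had a Pearson r of 0.81 (exact permutation p = 0.0122, adjusted over the 6 p = 0.0732) and a Spearman rho of 0.81 (exact p = 0.0218, adjusted 0.11). Without the 2 lines farthest from the Notch2 median r was 0.55, and in the Senexin B libraries of the same lines it was 0.59. Notch1 and Hes1 had r = -0.72 (exact permutation p = 0.0608, adjusted 0.182) and rho = -0.62 (exact p = 0.115), and without the 2 farthest lines r was 0.02, so the relation rests on wild-type line 4 and knockout line 1. In the Senexin B libraries it was -0.19. The other 4 relations had r from -0.52 to 0.57 with adjusted exact permutation p of 0.229 or more, and the largest rho among them was that of Notch1 and Nrarp at 0.76 (exact permutation p = 0.0368, adjusted 0.11). Notch1 and Dtx1 had r = -0.29 in DMSO and -0.76 in the Senexin B libraries (exact permutation p = 0.0266, adjusted over the 6 relations there 0.16). No relation passed the adjustment in either set of libraries. Within a genotype there were only 4 lines, too few for a correlation.

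**Figure D5:**
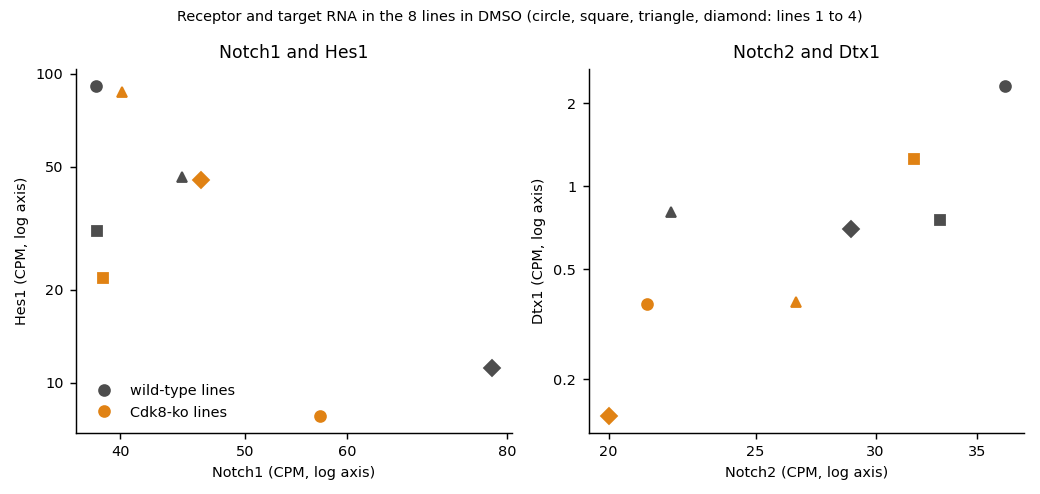
CPM of Hes1 against Notch1 and of Dtx1 against Notch2 in the 8 lines in DMSO, on log axes, wild-type lines in grey and knockout lines in orange. The 2 lines with the most Notch1, at 77.8 and 57.2 CPM, have the least Hes1, at 11.2 and 7.8 CPM, and the line with the most Notch2 has the most Dtx1.

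The genes whose log2 CPM followed the members most closely over the 16 libraries, among 14163 genes compared, were Bach1 (r = 0.88), Smarcd1 (r = 0.87) and Lonp2 (r = 0.87) for Notch1. For Notch2 they were Usp31 (r = 0.90), March6 (r = 0.88) and Zfp952 (r = 0.86), and for Hes1 they were Zcchc18 (r = 0.92), Slc25a53 (r = 0.90) and Igsf5 (r = 0.87). These libraries come in pairs from 8 lines, so the 16 points are not independent, and the values are descriptions only.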

How the data were processed

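RNA of 8 BCR-ABL1p185+ lines, each with DMSO and Senexin B, was analysed from 16 count files. Per the study's methods the authors used Trimmomatic to clean single-end reads, STAR to align them and featureCounts to assign them to GENCODE gene models of GRCm38, and the commands in the file headers hold no strand option, so reads were counted by the default, without strand. Raw counts per gene were deposited, with no normalization. Header paths of 15 of the 16 files name a folder called modified and 1 does not. Symbols were found for 50376 of 50686 gene models. No library pair was a copy (120 pairs, chi-square per gene of at least 22.6).

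Groups were taken from the labels. Counts were tested in R 4.3.3 with edgeR 4.0.16 (TMM, filterByExpr, robust quasi-likelihood test, Benjamini-Hochberg over all genes tested), using only the 8 libraries of the groups compared, and all 16 for the interaction. The limits, those that the study's methods give for its DESeq2 tests, were an adjusted p under 0.05 together with a fold over 2. The study states a looser adjusted limit for its heatmap and its pathway analysis. Its gene numbers were not compared with those given here. The lines were individually derived, so p-values of the genotype tests measure the spread between lines. With the line as a block, p-values for Senexin B measure the spread of the within-line differences. Without the block, the tests of Senexin B and of the interaction treat both libraries of a line as independent, which they are not. Ratios and correlations were tested by exact permutation in scipy 1.17.1. The calling without the block was tested on simulated counts. For Senexin B and the interaction these counts held no differences between lines, so they do not test calling under that spread. The fit with the block was not tested in this way. Within-line differences are of log2(CPM + 0.1).

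The pairing of replicate numbers was checked by correlating deviations from the group means. DMSO and Senexin B libraries of the same number had r of 0.593 to 0.773 in wild-type and 0.772 to 0.868 in knockout lines, so the number marks the line and the replicate block is printed beside the results. Between genotypes the mean r was 0.008 in DMSO and 0.104 with Senexin B, so the numbers pair nothing there.

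Alternatives were DESeq2 1.42.0, RLE size factors, no filter, at least 10 counts in every library, the replicate block, all 16 libraries in one fit, and leaving out each library. Leaving out a line with the block was added after the data were seen. The members, lists and tests were chosen with earlier results of these data known. Named are the 10 members, Cdk8, and of 81 other pathway genes those past the limits, or up to 5 with an unadjusted p under 0.05 whose groups do not overlap (for Senexin B, with the same direction in all 4 lines), and the 3 genes most like Notch1, Notch2 and Hes1. Depth limits what can be said of Dll1 and Dtx1. The values of 1 listed pathway gene are not reported here.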

Additional observations from a re-analysis of the deposited data

Results flagged for a closer look

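Over 40 sets of 4 libraries, 3 held a value that stood apart from the other 3 by more than the critical gap of Dixon's test, and chance flags about 1 in 20. Notch1 in wild-type line 4 in DMSO had 77.8 CPM, with a gap of 0.836 of the range to the next line, and with Senexin B the same line had the highest of all 16 values. Dtx1 in wild-type line 1 in DMSO had 2.31 CPM (gap 0.935 of the range), which rests on 40 counts. Nrarp in knockout line 2 with Senexin B had 2.27 CPM (gap 0.921 of the range) on 33 counts, and that line was also the lowest of the knockout lines in DMSO. Causes of these values were not tested.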

How the results depend on the processing

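No member passed the limits under DESeq2, RLE size factors, either filter, the replicate block, the fit of all 16 libraries or without any single library, and of 815 member log2 fold changes recomputed 753 kept direction and side of the limits, 61 changed sign and 1 came to pass. That one was Hes1 with Senexin B in wild-type lines (1.29, the replicate block without line 1, where 538 genes and 1 member passed). Genes past the limits numbered 20 by DESeq2, and 0 with at least 10 counts in every library, with the replicate block and without any single library (0 to 0), for genotype in DMSO. They numbered 3 by DESeq2, 1 without a filter and 1 with all 16 libraries for genotype with Senexin B, and 17 by DESeq2, 3 without a filter and 45 with the replicate block for Senexin B in wild-type lines. That block gave 538, 0, 9 and 28 without wild-type line 1, 2, 3 or 4, and in knockout lines 7 with all lines, 31, 0, 2 and 0 without line 1, 2, 3 or 4, and the cause was not tested. Leaving out a library moved the genotype difference in the log2 Notch1 to Notch2 ratio from -0.01 to 0.45 in DMSO and from -0.48 to 0.50 with Senexin B, and leaving out a line moved the difference of Senexin B from DMSO from -0.23 to 0.31 in wild-type and from -0.47 to 0.13 in knockout lines. Leaving out a library also moved these log2 fold changes across 0. For genotype in DMSO they were Notch1 (-0.25 to 0.17), Hes1 (-0.84 to 0.46), Nrarp (-0.03 to 0.46), Rbpj (-0.18 to 0.03) and Maml2 (-0.08 to 0.14), and with Senexin B Notch1 (-0.13 to 0.59), Notch2 (-0.11 to 0.48), Rbpj (-0.09 to 0.15) and Maml1 (-0.03 to 0.14). For Senexin B in wild-type lines they were Notch1 (-0.63 to 0.18), Notch2 (-0.51 to 0.09), Dtx1 (-0.52 to 0.87), Nrarp (-0.31 to 0.11), Rbpj (-0.21 to 0.05) and Fbxw7 (-0.28 to 0.0031), and in knockout lines Notch1 (-0.13 to 0.25), Hes1 (-0.32 to 1.05), Rbpj (-0.01 to 0.07), Maml2 (-0.10 to 0.14) and Fbxw7 (-0.07 to 0.07). For the interaction they were Notch1 (-0.09 to 0.71), Hes1 (-1.12 to 0.24), Dtx1 (-0.57 to 0.85), Rbpj (-0.01 to 0.24) and Fbxw7 (-0.01 to 0.26). With the replicate block, leaving out a whole line, chosen after the data were seen, turned Notch2 (0.09 without line 2) and Dtx1 (-0.0031 without line 3) in wild-type lines. In knockout lines it turned Notch1 (-0.13) and Fbxw7 (0.12) without line 4, Notch2 (-0.04) and Rbpj (-0.04) without line 1, and Maml2 without line 1 (-0.05) or 4 (-0.03), and without a filter Maml2 was -0.0023. The interaction of Dtx1 was -0.02 without wild-type line 4 and -0.14 without knockout line 3. The correlation of Notch2 and Hes1 was -0.18 in the Senexin B libraries. The block of paired lines changed no other call of a member. Counts of 2 to 44 limit Dtx1, and Dll1 could not be tested at 0 to 5 counts.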
